A study of Bubalus bubalis with 3 samples.

Results

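miR-486, miR-451 and miR-144 are the miRNAs that mark red blood cells and their precursors, and their levels in the fat of Chinese swamp buffalo (Bubalus bubalis) are described here. They were selected by their names, with no threshold on the values (bta-miR-486, bta-miR-451 and bta-miR-144, the prefix being that of cattle miRNAs) and make up 3 of the 622 names measured. Each stem had 1 listed name, so no opposite arm could be compared. Small RNA was sequenced in 1 group of 3 libraries from animals aged 6 months, called library 1, 2 and 3 after the numbers in their titles. No treatment, genotype, sex or fat depot is given, and nothing states that the libraries come from separate animals. The spread between them may therefore be technical. There is no second group, so the comparisons made are between the 3 miRNAs and between libraries.

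miR-451 and miR-144 are made from a common primary transcript whose promoter is driven by the erythroid transcription factor GATA1. miR-451 is the best known mammalian miRNA that is not cleaved by Dicer: its short hairpin is cut by the slicer activity of Argonaute 2 and then trimmed. miR-486 lies in an intron of the ankyrin gene ANK1, which encodes a protein of the red cell skeleton, and is also expressed in striated muscle. In mice, miR-451 represses the 14-3-3 protein gene YWHAZ and supports the survival of red cell precursors under oxidative stress, while in human and mouse cells miR-144 represses the antioxidant regulator NRF2 and miR-486 represses FOXO1. Mature red cells have no nucleus but keep these miRNAs, so a piece of tissue that contains blood is known to give reads of all of them.

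Values were TPM as the authors deposited them, each a miRNA's share of the reads that its library assigned to listed names, scaled to a fixed total. The spacing of low values put the depth of library 1 at about 6860000 reads, that of library 2 at 6770000 and that of library 3 at 5480000. The 166 names whose mean reached 10 TPM, among all 622, are called tested names. All 3 red cell miRNAs passed this minimum. Library 2 gave lower values for most names, with a median over the tested names of 91.5 TPM against 213 and 156 TPM in libraries 1 and 3. In the same library miR-10b, the most abundant miRNA, held 48.8% of TPM, against 26.5% and 40.4% in libraries 1 and 3.

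miR-486 was the most abundant of the 3, with 4611, 2214.5 and 3620 TPM in libraries 1, 2 and 3. Its mean was 3482 ± 1204 TPM (SD, n = 3), and it ranked 25, 22 and 21 among the 622 names. It was lowest in library 2, yet its rank there lay between those in the other libraries. miR-451, the Argonaute-processed miRNA, had 1486, 325 and 1371 TPM, a mean of 1061 ± 639.8 TPM (SD, n = 3). Libraries 1 and 3 were close to each other and library 2 was far below them, with ranks of 39, 54 and 37. miR-144, which shares its transcript with miR-451, had 84.8, 18 and 54.3 TPM, a mean of 52.4 ± 33.4 TPM (SD, n = 3) and ranks of 112, 131 and 116. Library 1 was the highest and library 2 the lowest for all 3 miRNAs. Library 1 exceeded library 3 for 73.5% of the tested names as well.

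Counting error was small beside these differences. The lowest value, that of miR-144 in library 2, rested on about 122 reads, with an exact 95% Poisson interval of 14.97 to 21.5 TPM. Its interval in library 3 was 48.35 to 60.9 TPM and in library 1 78.04 to 91.96 TPM, so the 3 intervals did not overlap. For miR-451 the intervals of libraries 1 and 3 were 1457 to 1515 and 1340 to 1403 TPM, and that of library 2 was 312 to 339 TPM. Such intervals reflect counting alone, because PCR copies were not told apart by molecular identifiers, and they compare libraries, not conditions. In a piece of tissue, fewer red cells and less of a miRNA per red cell cannot be told apart.

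Together the 3 miRNAs made up 0.618%, 0.256% and 0.505% of TPM in libraries 1, 2 and 3. miR-486 supplied most of this, 74.6%, 86.6% and 71.7% of the 3-miRNA sum. miR-451 supplied 24.04%, 12.7% and 27.2%, and miR-144 1.37%, 0.704% and 1.08%. The makeup of the sum thus differed between libraries, with the share of miR-451 lowest and that of miR-486 highest in library 2.

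**Figure D1:**
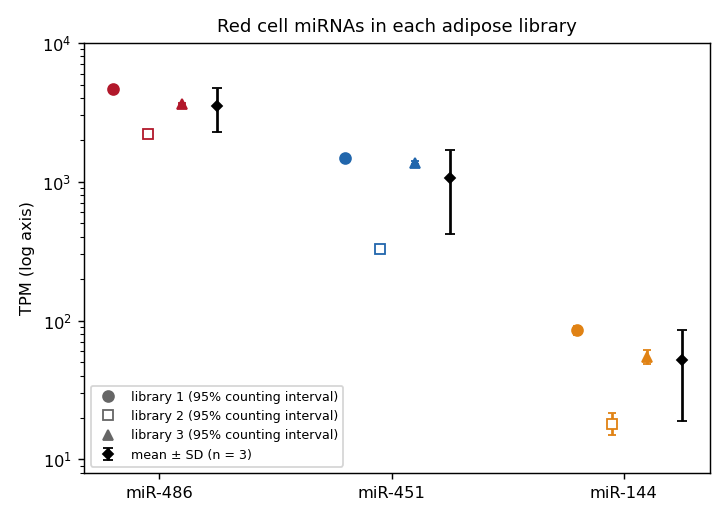
TPM on a log axis for miR-486, miR-451 and miR-144 in libraries 1 (circle), 2 (open square) and 3 (triangle), with exact 95% counting intervals and, in black, the mean ± SD over the 3 libraries. Library 2 is the lowest point for each miRNA, and miR-486 (2214.5 TPM) lies nearer to its other libraries there than miR-451 (325 TPM) and miR-144 (18 TPM) do.

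Ratios taken within a library do not depend on how that library was scaled, and they separated miR-486 from miR-451 and miR-144. miR-451 exceeded its transcript partner miR-144 by 17.5-fold in library 1, 18.1-fold in library 2 and 25.3-fold in library 3. The ratios in libraries 1 and 2 had overlapping exact 95% counting intervals (16.1 to 19.1 and 15.02 to 21.8), and that of library 3 (22.5 to 28.4) lay above both. Both miRNAs were thus lower in library 2 than in library 1 by similar factors, 4.57-fold for miR-451 and 4.71-fold for miR-144. From library 3 to library 2 the factors were 4.22 and 3.02.

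miR-486 exceeded miR-451 by 3.1-fold, 6.81-fold and 2.64-fold in libraries 1, 2 and 3. The counting interval in library 2 (6.52 to 7.13) was clear of those in libraries 1 (3.03 to 3.17) and 3 (2.57 to 2.71). Against miR-144, miR-486 was 54.4-fold, 123-fold and 66.7-fold higher. Library 2 again stood above the others, since miR-486 was only 2.08-fold lower in library 2 than in library 1.

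On the scale of log2(TPM + 1), the mean difference was 1.93 ± 0.73 log2 units (SD, n = 3) between miR-486 and miR-451 and 4.28 ± 0.30 between miR-451 and miR-144. Between miR-486 and miR-144 it was 6.22 ± 0.58. The order miR-486, miR-451, miR-144 held in 3 of 3 libraries, and each step between neighbours exceeded the SD of that step. Flipping the signs of the differences in an exact permutation test (two-sided) gave p = 0.25 for each of the 3 pairs (adjusted p = 0.25 over the 3), the smallest p that 3 libraries allow. The SD of the difference between miR-451 and miR-144 (0.30) lay below the median of 0.51 over all 13695 pairs of tested names, and 25.3% of those pairs had a smaller one. The SDs between miR-486 and miR-451 (0.73) and between miR-486 and miR-144 (0.58) lay above that median, with 70.7% and 57.4% of pairs smaller. Neither was extreme among the pairs. A tie as close as that of miR-451 and miR-144 was therefore common among pairs of tested names. Single libraries set these SDs. Without library 2 that of miR-486 and miR-451 was 0.16, of miR-486 and miR-144 0.20 and of miR-451 and miR-144 0.37, which turns their order. Without library 3 the SD of miR-451 and miR-144 was 0.010.

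**Figure D2:**
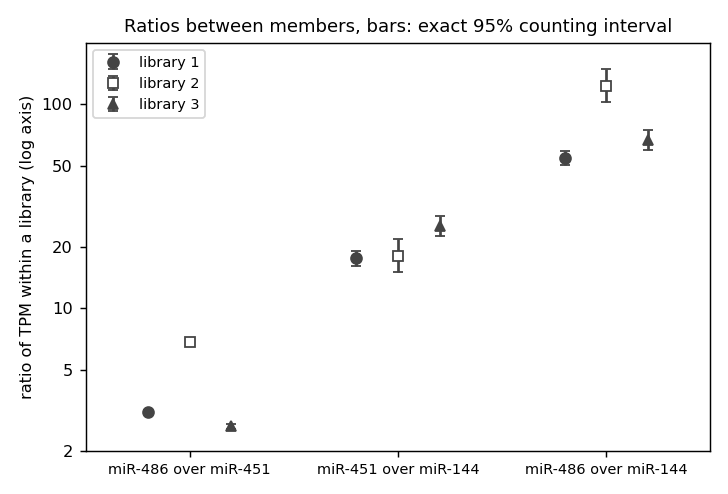
Ratio of TPM between members within each library on a log axis, with bars for the exact 95% counting interval. The ratio of miR-451 to miR-144 is 17.5 and 18.1 in libraries 1 and 2 and 25.3 in library 3, whereas both ratios of miR-486 are highest in library 2 (6.81 and 123).

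The low values in library 2 have to be read against the other miRNAs. All 3 red cell miRNAs were lowest in library 2, as were 91.6% of the tested names, so their order of libraries was that of the pool. At least 2-fold below both other libraries were 2 of the 3, miR-451 and miR-144, against 33.7% of the tested names. The size of the difference set them apart more than its direction. The value of library 2 minus the mean of libraries 1 and 3 was -2.13 log2 units for miR-451, -1.86 for miR-144 and -0.88 for miR-486, beside a median of -1.05 over the tested names. Only 3 tested names had a lower value than miR-451 (1.82% of the others), and 9 had a lower one than miR-144 (5.45%). For miR-486, 109 tested names (66.1%) were lower, so it was near the middle of the pool.

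Division by median-of-ratios size factors removes the shift shared by most names. It divides all names of a library by the same number, so it cannot change the split between miR-486 and the other members. miR-486 then had 3322, 3639 and 3129 scaled TPM in libraries 1, 2 and 3, highest in library 2. miR-451 had 1071, 534 and 1185 scaled TPM and miR-144 had 61.1, 29.6 and 46.9, both still lowest in library 2. After this scaling 31.3% of the tested names were lowest in library 2. A value at least 2-fold below both other libraries was then found for 2.41% of them, among which was miR-451, which passed narrowly (534 scaled TPM against a limit of 535.3), and not miR-144.

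The spread between libraries followed the same split. The SD of log2(TPM + 1) was 1.23 for miR-451, 1.12 for miR-144 and 0.54 for miR-486, beside a median of 0.66 over the tested names. After size factors these were 0.63, 0.52 and 0.11, beside 0.29. miR-486 was then less varied than 87.3% of the other tested names, and 17.6% were more varied than miR-451. The spread of miR-451 rested on library 2, and its SD without it was 0.082. Without library 2 the SD was 0.45 for miR-144 and 0.25 for miR-486.

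**Figure D3:**
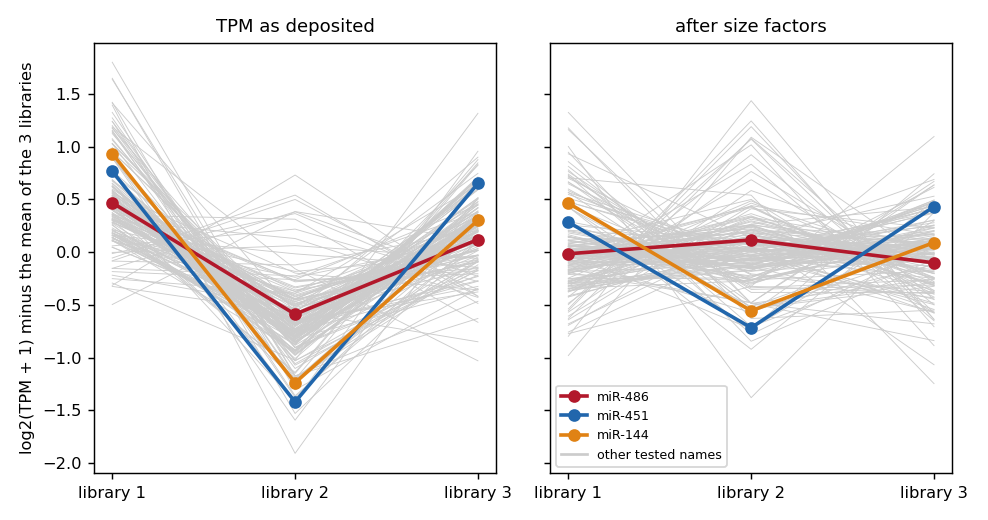
log2(TPM + 1) of each tested name minus its mean over the 3 libraries, as deposited (left) and after size factors (right), with the 3 red cell miRNAs in colour and the other tested names in grey. On the left all 3 coloured lines dip in library 2 with most grey lines, and on the right miR-451 and miR-144 still dip while miR-486 lies close to 0 in every library.

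Other miRNAs known to be abundant in red cells or in their last nucleated stages were then examined. Of 14 planned names 13 were listed and 8 reached a mean of 10 TPM, as did 40.2% of the 396 known bovine names. The median of the 13 was 19.7 TPM, beside 4.82 TPM over the known names and 168 TPM over the tested names. Most of these 8 are also expressed in many other cells. The most abundant was miR-92a, of the miR-17-92 group, with 2135, 1174 and 2039 TPM. It was followed by miR-25 (1823, 710.5 and 1617 TPM), miR-16a (707, 368 and 495 TPM), a repressor of the cell cycle, and miR-93 (450.7, 176 and 408 TPM). These 4 were lowest in library 2 as well, and library 1 was the highest for each.

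Measured against these 4, the members again differed. miR-486 exceeded miR-16a by 6.52-fold, 6.02-fold and 7.32-fold in libraries 1, 2 and 3, and miR-92a by 2.16-fold, 1.89-fold and 1.78-fold. Against miR-25 it was 2.53-fold, 3.12-fold and 2.24-fold higher, and against miR-93 10.2-fold, 12.6-fold and 8.88-fold, in both cases most in library 2. The ratio of miR-451 to miR-16a was 2.10, 0.883 and 2.77, so miR-451 was the more abundant in libraries 1 and 3 and the less abundant in library 2. Its ratio to miR-92a was 0.696, 0.277 and 0.673, to miR-25 0.815, 0.457 and 0.848, and to miR-93 3.30, 1.85 and 3.36. All these ratios of miR-451 were lowest in library 2. miR-144 stood at 0.120, 0.0489 and 0.1097 of miR-16a, likewise lowest in library 2. Against the mean of libraries 1 and 3, only 3 tested names were lower in library 2 than miR-451 and 9 than miR-144. The low ratios thus restate that difference and are not particular to red cell names.

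Among the less abundant names that reached 10 TPM, miR-16b and miR-106b had means of 86.1 and 74.5 TPM. miR-15b and miR-185 had means of 19.7 and 17.6 TPM. The other listed red cell names lay below 10 TPM. The cluster of miR-96, miR-182 and miR-183 had means of 0.233, 2.17 and 0.900 TPM. miR-363 had 1.40 TPM and miR-20b 0.833 TPM. In library 1 miR-96 was listed at 0 TPM, which allows up to 0.437 TPM (3 reads).

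miRNAs known to decline as red cell precursors mature, or to oppose that maturation, were all listed, 8 of 8. A mean of at least 10 TPM was reached by 6 of them, against 40.2% of the known bovine names. The median of the 8 was 168 TPM. The most abundant was miR-191, with 15623, 9502 and 10374 TPM in libraries 1, 2 and 3, above miR-486 in every library. miR-24-3p, which represses the activin receptor ALK4, had 1603, 979 and 1042 TPM. miR-103 had 869, 282 and 693 TPM and miR-150, a repressor of MYB that is abundant in lymphocytes, 373, 94.4 and 159 TPM. miR-221 and miR-222, which repress the KIT receptor, had means of 126 ± 46.1 and 5.77 ± 3.09 TPM (SD, n = 3). These miRNAs are made by many cell types, and 3 of the 8 are also in the white cell list below.

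Markers of other cells moved with the members in part. The 5 white cell miRNAs (miR-142-5p, miR-142-3p, miR-150, miR-155 and miR-223) summed to 914, 190 and 297 TPM in libraries 1, 2 and 3. Of the 5, 4 reached a mean of 10 TPM, against 40.2% of the known bovine names. The white cell sum was highest in library 1 and much lower in both other libraries. miR-451, by contrast, was low in library 2 and not in library 3. The ratio of miR-451 to the white cell sum was 1.63, 1.71 and 4.62, and that of miR-144 was 0.0927, 0.0947 and 0.183. For both it was alike in libraries 1 and 2 and higher in library 3. For miR-486 it was 5.04, 11.7 and 12.2. Whether blood left in the tissue set these values was not tested.

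Striated muscle is another known source of miR-486. The 7 muscle miRNAs (miR-1, miR-133a, miR-133b, miR-206, miR-208a, miR-208b and miR-499) summed to 36.2, 9.9 and 24.7 TPM. Of the 7, 0 reached a mean of 10 TPM, against 40.2% of the known bovine names. The muscle sum was 0.785%, 0.447% and 0.682% of the miR-486 level. miR-1 had 13.1, 6.9 and 7.8 TPM and miR-133a had 15.4, 1.3 and 10.4 TPM, so that miR-133a was the higher in libraries 1 and 3 and miR-1 in library 2. In libraries 2 and 3, 2 of the 7 (miR-206 and miR-208a) were listed at 0. miR-486 exceeded miR-1 by 352-fold, 321-fold and 464-fold. The part of muscle in the level of miR-486 was not tested beyond these values.

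Vessel lining was represented by miR-126, an endothelial miRNA, whose arms summed to 25474, 13223 and 24230 TPM. The ratio of miR-486 to miR-126-5p was 0.188, 0.175 and 0.155, and that of miR-451 to miR-126-5p was 0.0606, 0.0257 and 0.0587. Against miR-126-3p, miR-486 stood at 4.79, 3.79 and 4.09 and miR-451 at 1.54, 0.556 and 1.55. miR-486 thus varied less against both arms than miR-451, which was lower against them in library 2. miR-486 was near the middle of the pool, so a narrow ratio is not particular to an endothelial miRNA. The low ratio of miR-451 in library 2 is not particular to such a miRNA either. Markers of epithelium (6 miRNAs) summed to 14.2, 7.1 and 16.1 TPM, and the liver miRNA miR-122 had 0.6, 0.1 and 0.4 TPM. None of these lists defines fat cells, so the labelled tissue was not checked beyond them.

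**Figure D4:**
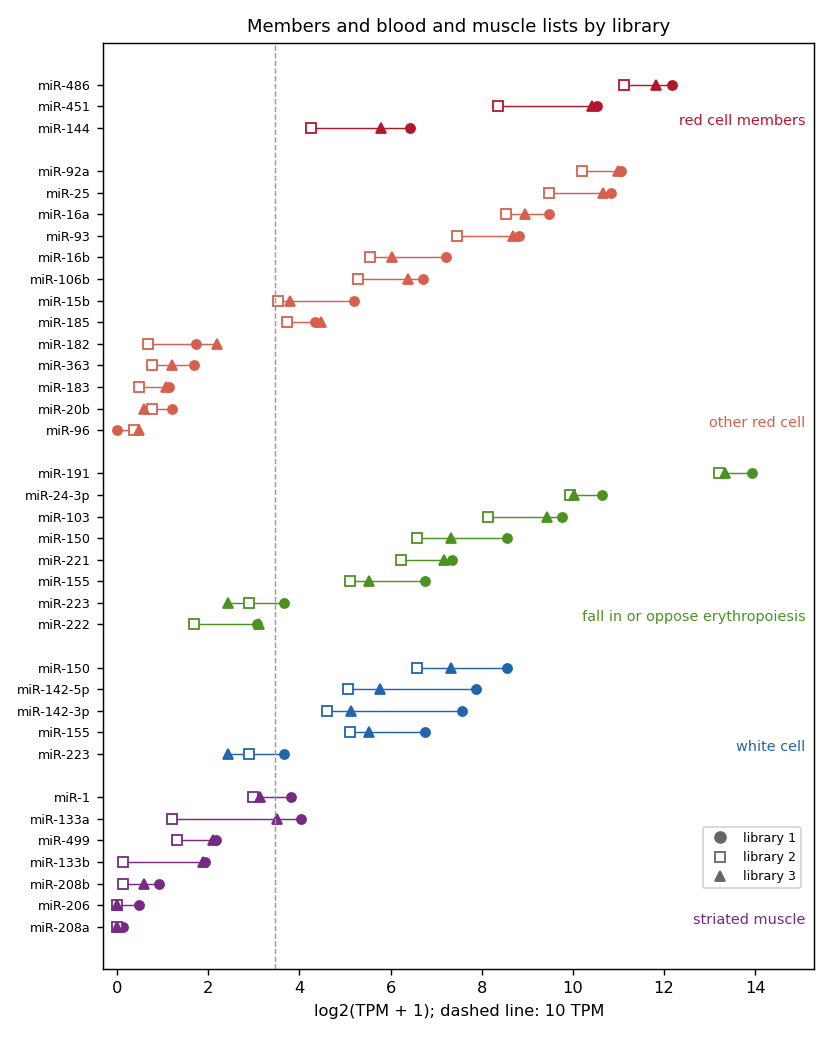
log2(TPM + 1) of the 3 members and of the lists of other red cell, declining or opposing, white cell and striated muscle miRNAs, 1 row a miRNA, with libraries 1 (circle), 2 (open square) and 3 (triangle). miR-486 and miR-451 lie far above the muscle miRNAs, none of which reaches a mean of 10 TPM. miR-144 in library 2 (18 TPM) is just above the highest muscle value (15.4 TPM, miR-133a in library 1). The white cell miRNAs are highest in library 1, most clearly the miR-142 arms, while miR-223 is low in all libraries (11.7, 6.4 and 4.4 TPM).

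The tested names whose profile over the 3 libraries was nearest to each member were picked by the root mean square difference of log2(TPM + 1) after centring. With 3 libraries near matches are common: the median distance of a tested name to its nearest neighbour was 0.029 log2 units. miR-486 was nearest to miR-15a (0.013), which had 195, 91.3 and 153 TPM in libraries 1, 2 and 3, and then to miR-192 (0.018), miR-2898 (0.025), the unnamed candidate 13_6388 (0.028) and miR-30c (0.028). miR-451 and miR-144 were far from it, at 0.60 and 0.47, with 143 and 124 tested names nearer.

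miR-451 had no such close match. Its nearest names were miR-196b (0.11; 112, 21.7 and 85.1 TPM) and miR-196a (0.13; 72, 12 and 62.7 TPM), both encoded in HOX clusters. miR-107 (0.24), miR-144 (0.25) and miR-2435 (0.25) followed, so 3 tested names were nearer to miR-451 than miR-144 was. Seen from miR-144, the nearest were miR-107 (0.027; 154, 34.9 and 102 TPM), which lies in an intron of a PANK gene, and miR-424-5p (0.079; 52.6, 10.2 and 29.2 TPM). miR-153 (0.16), miR-196b (0.16) and miR-380-3p (0.17) came next, and 12 tested names were nearer than miR-451. After size factors miR-15a, miR-196b and miR-107 were again the nearest to miR-486, miR-451 and miR-144. This adds no evidence, because the scaling shifts all names of a library alike and nearly cancels in each distance. Reads of miR-196a and miR-196b, and of miR-107 and miR-103, can be hard to separate because the mature forms of each pair are so alike, and their levels are uncertain to that extent.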

How the data were processed

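Small RNA of adipose tissue was measured in 3 libraries of 1 group. Per the labels' protocols, TRIzol was used for extraction, adaptors were ligated to both ends of small RNA (TruSeq, Illumina) and cDNA of miRNA size was cut from a gel. The submitters' processing notes name Bowtie and the bovine build UMD3.1. The sources used here do not say how reads were counted, annotated, filtered or divided among similar names.

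Per the file headers, values are the authors' TPM. They carry 1 decimal, and each column sums to 1000000 within rounding. Of its value columns, 0 were left unmapped. The members and lists were chosen with earlier results of these data known. The worth of 1 read was the step on which values up to 30 TPM lie (99.5% to 100% within 0.1 TPM rounding, against 54.8% to 68.6% for values at random). On 20 simulated tables of 622 names it was off by at most 0.0351%. A value of 0 allows 3 reads, or 0.437, 0.443 and 0.547 TPM in libraries 1, 2 and 3.

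Values were analysed as log2(TPM + 1), which understates differences of low names, and no count model was fitted. Size factors were medians of ratios over the tested names (1.39, 0.609 and 1.16). Named miRNAs were the members, list members (values for the 4 most abundant and any a sentence turns on) and the 5 nearest profiles. Ratios carry exact binomial intervals at 95%. Alternatives were other pseudocounts, minimum levels, size factors and leaving out a library. Mature sequences were not used here. Python 3.11.15, numpy 2.4.6, pandas 2.3.3, scipy 1.17.1 and matplotlib 3.10.9 were used.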

Additional observations from a re-analysis of the deposited data

How the results depend on the processing

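The differences between miR-486, miR-451 and miR-144 stayed within 1 SD under pseudocounts of 0.1 and 10. Their direction was bound to hold there and without each library, because the order was the same in every library. Leaving out 1 of 3 libraries also cannot move a mean by as much as 1 SD. Over the 70 recomputed values, 49 stayed within the spread between libraries (or within 1.5 times for counts and SDs), 21 moved and 0 reversed. The 49 include the mean levels and differences without a library, which could not move by this rule. Reversal was asked only of the differences and could not occur, so the 0 carries no information. Mean levels moved in 1 case: with miR-10b taken out of the total, a choice made after the data were seen, miR-486 had 5559 TPM and its SD was 0.30. After size factors the SD was 0.11 for miR-486, 0.63 for miR-451 and 0.52 for miR-144. With a library left out the SD ranged from 0.25 to 0.75 for miR-486, from 0.082 to 1.55 for miR-451 and from 0.45 to 1.54 for miR-144, each lowest without library 2. Names lowest in library 2 numbered 266 of 307 at a minimum of 1 TPM, 83 of 95 at 100 TPM, 380 of 622 with no minimum and 52 of 166 after size factors, in place of 152 of 166. Names more varied than miR-486 numbered 193, 56 and 210 at these minimums in place of 115, and those more varied than miR-451 numbered 20, 2 and 20 in place of 13. After size factors 29 were more varied than miR-451, and 50 more than miR-144 in place of 20. At 100 TPM, 4 of the other red cell names remained in place of 8, and miR-144 was itself below that minimum. Fewer or more names enter each count by construction, and the cause of the other moves was not tested. No paired analysis was possible because the series has 1 group. Depth limits the names below about 1 TPM, where values rest on a few reads.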
